A study of Mus musculus with 23 samples.

Results

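Transcript levels of 36 genes that the transcription factor p53 is known to activate were followed across whole mouse embryos that differed in p53 genotype and in exposure to heat. The members are the p53 targets grouped as weakly responding, and they were found by gene symbol and gene ID among the probes of the array. Of the 36 genes, 33 have a probe among the 18069 named genes of the array, and Bax, Gdf15 and Lif have none here. Of the 33, 26 passed the filter on low values and were tested, out of 12651 tested genes, and the other 7 were too dim or empty on the control arrays. The genes were chosen with the results of these embryos known, so their weaker response next to other p53 targets is built into the choice.

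The embryos came from crosses between p53 heterozygous mice and were collected on day 8.5 after 10 minutes in a water bath. The 6 groups are p53 null (-/-) embryos at 43 °C (null heat, 3 pools), heterozygous (+/-) embryos at 43 °C (heterozygous heat, 4 pools), wildtype (+/+) embryos at 43 °C (wildtype heat, 4 pools), and null, heterozygous and wildtype embryos at 38 °C (null control, heterozygous control and wildtype control, 4 pools each). Each pool combined 3 to 7 whole embryos of the same genotype and bath, and was labelled and read on its own CodeLink array, a 1-colour platform of short oligonucleotide probes. Null heat pools number 3 because another one is not used here, and the sources used here do not give the mouse strain, the p53 allele or the time from bath to collection.

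p53 is held at a low level in unstressed cells by ubiquitin ligases that it induces itself, and stress releases it to bind pairs of half-sites near its target genes. Its targets stop the cell cycle, start cell death, repair DNA, alter metabolism and signal to neighbouring cells. In the early embryo p53 is best known for the cell death that follows teratogenic stress and, when its inhibitors are lost, for death before birth. Among the members, cell-death genes include Aen, Ei24, Pidd1 and Perp, cell-cycle genes include Btg2, Gtse1, Fbxw7 and Pml, and DNA repair and nucleotide supply is served by Ddb2, Polk, Rrm2b and Xpc. Metabolism and growth control hold Cpt1c, Ddit4, Pltp, Sesn1 and Tsc2, and signalling holds Epha2, Igfbp3 and Rap2b.

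Values are normalized intensities in the arrays' own relative units, and the level of one probe cannot be set against that of another. Control arrays had 7576 to 11666 empty cells each and heat arrays had none, so bath and array processing cannot be told apart. The heat shock gene Hspb1 read 63.5 to 95.9 in heat pools, against 15.2 to 20.2 in control pools with a value. No tested probe carries the symbol of p53 itself, so the genotype labels were not checked with it. Its target Ccng1, cyclin G1, read 1.25 to 1.58 in null control pools, against 3.49 to 4.32 in wildtype control pools. Among null heat pools it read 3.02 in A, apart from 1.24 and 1.39 in B and C, against 9.42 to 14.2 in wildtype heat pools. Markers of the neural tube (4 of 4 genes with a probe), somites (4 of 4), heart (3 of 3), primitive red cells (4 of 4) and yolk sac (5 of 5) were above the dim level on most heat arrays. Of the endothelial markers 3 of 4 were, with Cdh5 at a median of 0.28, and the immune markers Ptprc and Lyz2 were not, at 0.233 and 0.266. Of the trophoblast and decidua markers 1 of 3 was. In whole-embryo RNA, fewer cells of a type and less RNA per cell cannot be told apart.

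Some pools stood apart from their groups. Hspa1a, the inducible heat shock protein, read 78.7, 123 and 102 in wildtype heat pools A, C and D and 0.877 in pool B. Among null heat pools it read 120 in pool B, with 1.77 and 2.1 in pools A and C, and among heterozygous heat pools it read 1.49 to 2.09. Cdkn1a, the p53-induced cell cycle inhibitor p21, read 34.1, 34.2 and 22.1 in wildtype heat pools A, C and D and 9.85 in pool B. In heterozygous control pools it read 5.41 and 5.25 in A and B and 1.29 and 1.45 in C and D. A score that places each array along the difference of heterozygous control pools A and B from C and D ran from -0.608 to -0.245 in null control pools, against 0.0656 to 0.425 in wildtype control pools. Results that rest on wildtype heat pool B or null heat pool B are given with and without it.

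Heat in wildtype embryos raised 1 member by 1 of its probes, Cpt1c, and none by the probe of highest mean level that stands for each gene. By that probe, 0 of the 26 tested members passed an adjusted p of 0.05 (limma), while 3.6% of all tested genes did, 1.25% higher and 2.35% lower. The unadjusted p was under 0.05 in 6 members, or 23.1%, against 18.9% of all genes. The fitted log2 fold change was above 0 in 18 members and below 0 in 8, with a median of 0.098, against -0.0249 over all genes. Over all genes it was above 0 in 5605 of 12651. Of 22 other tested p53 targets 13 rose, with a median of 0.602. They include the carbonyl reductase Dcxr (1.08 ± 0.12, SE), Phlda3, an inhibitor of AKT signalling (1.49 ± 0.18), Ccng1 (1.53 ± 0.19) and the death protein Noxa, Pmaip1 (1.98 ± 0.26).

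Cpt1c encodes the brain form of carnitine palmitoyltransferase, which resides in the endoplasmic reticulum and takes part in lipid sensing. Its probe 271081, designed on the RefSeq mRNA, read 6.99, 7.04, 8.7 and 8 in wildtype heat pools A to D, against 4.12, 3.62, 4.34 and 4.07 in wildtype control pools A to D. In heterozygous embryos it read 5.69, 5.38, 4.79 and 5.76 in heat pools, against 4.45, 4.03, 4.29 and 4.11 in control pools. In null embryos it read 3.76, 3.95 and 4.02 in heat pools, against 3.17, 3.47, 3.79 and 3.66 in control pools. All wildtype and heterozygous heat pools lay above the control pools of their genotype, wildtype heat pool B lay among the other wildtype heat pools, and the null ranges overlapped. The 3 heat groups did not overlap one another, in the order null, heterozygous, wildtype.

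With heat, Cpt1c probe 271081 rose by 0.92 ± 0.09 on the log2 scale in wildtype pools (adjusted p = 2.5e-06), to 7.68 ± 0.822 against 4.04 ± 0.301 (SD, n = 4 each). In heterozygous pools it rose by 0.35 ± 0.09 (adjusted p = 0.038), to 5.4 ± 0.442 against 4.22 ± 0.188 (SD, n = 4 each). The change in null pools was 0.15 ± 0.10 (adjusted p = 0.31). Between heat pools it was lower in null than in wildtype embryos, by a log2 difference of -0.97 ± 0.10 (adjusted p = 1e-05), and lower in heterozygous than in wildtype embryos, by -0.51 ± 0.09 (adjusted p = 0.021). The heat response itself differed between null and wildtype embryos, by -0.77 ± 0.13 (adjusted p = 0.015), and without null heat pool B the difference was -0.78 ± 0.15 (adjusted p = 0.058). The difference between the heterozygous and the wildtype response was -0.57 ± 0.13 (adjusted p = 0.32). Control pools did not separate by genotype past the threshold (null against wildtype -0.20 ± 0.09, adjusted p = 0.16). The heat call in wildtype pools held under all 20 alternatives, while the heterozygous one was lost under 12 of 20. Both sets of 20 include quantile normalization over all cells present, where most probes passed with heat. With it 19249 of 21979 probes passed in wildtype and 19238 in heterozygous embryos, so a call kept there says little about Cpt1c. The lower level in null than in wildtype heat pools was lost under 1 of 19, on the arrays of that comparison only (adjusted p = 0.088). The lower level in heterozygous than in wildtype heat pools was lost under 8 of 20. Among them were median centring, the values as deposited, that comparison's arrays only (adjusted p = 0.32) and quantile normalization over all cells present (adjusted p = 0.54). The omission of any of 4 single pools, wildtype heat C or D and heterozygous heat B or C, lost it too.

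**Figure D1:**
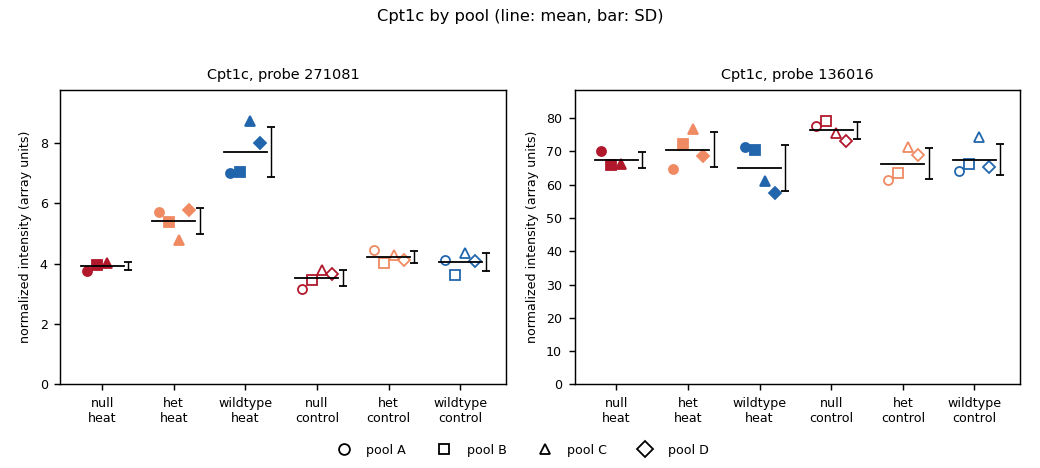
Normalized intensity (array units, linear axis) of the 2 tested Cpt1c probes in every pool of the 6 groups, with lines for means, bars for SD, filled markers for heat, open markers for control and het for heterozygous. With probe 271081 the heat pools lie at 3.76 to 4.02 in null, 4.79 to 5.76 in heterozygous and 6.99 to 8.7 in wildtype embryos, while probe 136016 lies between 57.4 and 78.9 everywhere.

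The other tested Cpt1c probe, 136016, lies on an expressed sequence tag rather than a RefSeq mRNA and has the highest mean, so it stands for the gene in the counts. It read 71.4, 70.4, 61 and 57.4 in wildtype heat pools, against 64.2, 66.3, 74.2 and 65.4 in wildtype control pools, a log2 change of -0.06 ± 0.08 (adjusted p = 0.75). Another Cpt1c probe was too dim to test. Which transcript each probe reads was not tested. The promoter of Cpt1c is shown because its probe 271081 had the smallest p with heat among the tested member probes. The window, from RefSeq on build GRCm38.p6, covers 250 bases before and 50 after the transcript start at chr7:44974802-44975101 on the minus strand, and none of its letters match the p53 half-site, so none are in capitals.
Cpt1c: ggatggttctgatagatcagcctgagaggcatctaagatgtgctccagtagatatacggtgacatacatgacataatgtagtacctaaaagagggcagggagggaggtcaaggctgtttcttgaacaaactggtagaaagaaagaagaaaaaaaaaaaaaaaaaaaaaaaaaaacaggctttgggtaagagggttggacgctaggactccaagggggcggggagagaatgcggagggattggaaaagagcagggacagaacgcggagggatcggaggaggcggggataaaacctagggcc

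By the probe of highest mean, all 6 tested cell-death members had a heat change above 0 in wildtype embryos. Changes ran from 0.11 for Tnfrsf10b, a death receptor for TRAIL, to 0.44 for Pidd1, and none passed the test. Pidd1, whose product builds a platform that activates a caspase, read 3.47, 2.67, 4.76 and 3.72 in wildtype heat pools A to D, against 2.93, 2.32, 2.73 and 2.62 in wildtype control pools. Heat pool B lay within the control range and the other 3 heat pools above it. The change was 0.44 ± 0.15 (adjusted p = 0.13), and 0.58 ± 0.15 (adjusted p = 0.033) without pool B. A second Pidd1 probe, 37069, changed by -0.26 ± 0.14 (adjusted p = 0.36). Aen, an exonuclease that promotes apoptosis, read 7.59, 6.04, 7.73 and 6.2 in wildtype heat pools, all above the 5.58, 5.23, 5.31 and 5.68 of the wildtype control pools, with a change of 0.33 ± 0.20 (adjusted p = 0.40). A second tested Aen probe, 6030, read 3.13 to 3.46 in wildtype heat pools, within the 2.52 to 3.77 of the wildtype control pools. By the probe of highest mean, Aen and Gtse1, 2 of 26 members, had all wildtype heat pools above all wildtype control pools, as had 5.76% of all genes. Cpt1c probe 271081 and Epha2 probe 12101, which do not stand for their genes, did so too.

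Among the 8 cell-cycle members, changes with heat in wildtype embryos ran from -0.13 for Gadd45a, which slows the cycle after damage, to 0.60 for Btg2, and none passed the test. Btg2, an antiproliferative factor that recruits mRNA deadenylases, read 2.79, 1.36, 5.82 and 2.98 in wildtype heat pools A to D, against 2.27, 1.49, 2.01 and 1.84 in wildtype control pools. Pools A, C and D lay above every control pool, and pool B below all of them. The change was 0.60 ± 0.27 (adjusted p = 0.24), and 0.95 ± 0.21 (adjusted p = 0.014) without pool B. Gtse1, a microtubule-binding protein of the G2 phase that holds p53 in check, read 11.4, 8.87, 14.6 and 13.9 in wildtype heat pools, against 8.74, 6.88, 8.13 and 8.46 in wildtype control pools. Among the probes of highest mean it had the smallest p of the members, with a change of 0.58 ± 0.18 (adjusted p = 0.076), and 0.72 ± 0.18 (adjusted p = 0.025) without pool B.

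In the DNA repair group, Polk, a DNA polymerase that copies past damaged bases, was the member with the largest heat change in wildtype embryos. It read 5.57, 3.4, 8.44 and 5.88 in wildtype heat pools A to D, against 4.37, 4.02, 3.88 and 3.63 in wildtype control pools. Pool B again lay below every control pool and the other heat pools above them. The change was 0.48 ± 0.20 (adjusted p = 0.22), and 0.72 ± 0.18 (adjusted p = 0.029) without pool B. Ddb2, which recognises ultraviolet damage, had the lowest change of the 26 members, -0.41 ± 0.20 (adjusted p = 0.30). Btg2, Gtse1, Polk and Pidd1 were the 4 members that passed the threshold in wildtype embryos once pool B was left out. Over all 21979 tested probes 772 passed without pool B, against 676 with it. Pool B was set apart partly by its low Cdkn1a, itself a p53 target, so leaving it out is not a choice independent of p53 targets. In pool B, Hspa1a and Cdkn1a were lower than in the other 3 wildtype heat pools, as Btg2 and Polk were, while Ccng1 read 11.2, within the 9.42 to 14.2 of the other 3, and Cpt1c lay between its neighbours. In null heat pool B, where Hspa1a read 120, Btg2 read 1.83 and Polk 3.7, both within the range of the other null and heterozygous heat pools. The part of pool B in these results was not tested beyond leaving it out.

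**Figure D2:**
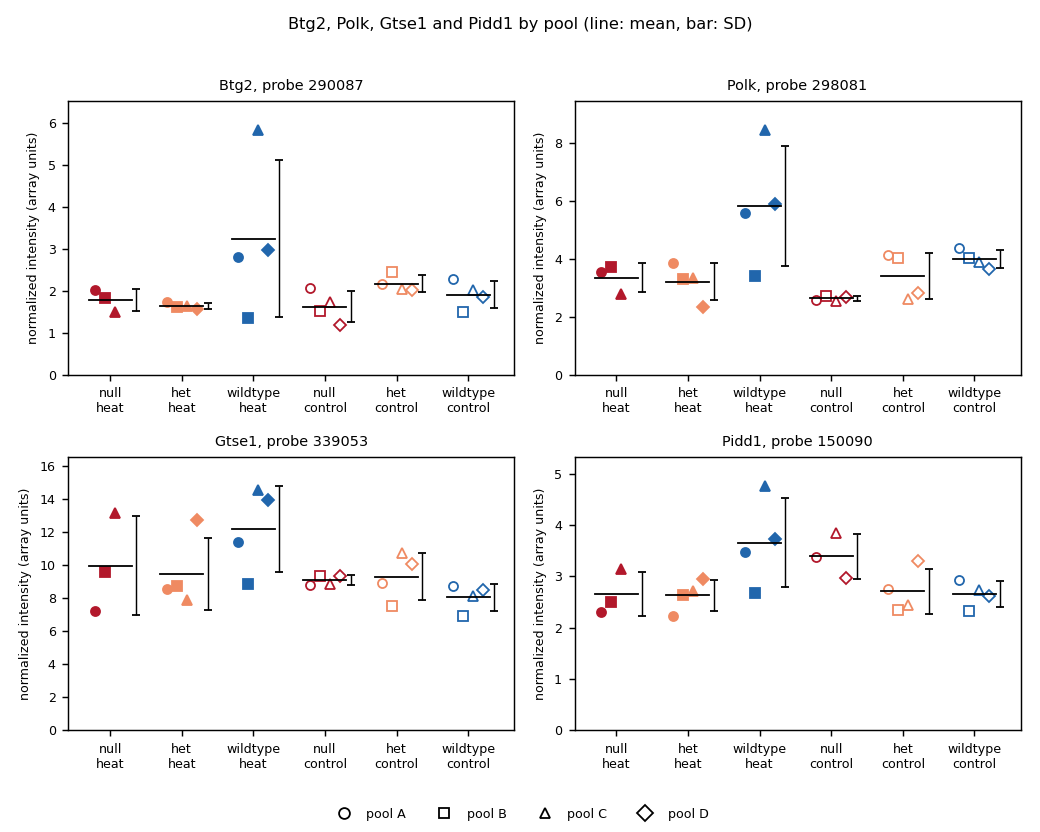
Normalized intensity (array units, linear axes) of Btg2, Polk, Gtse1 and Pidd1 in every pool of the 6 groups, with lines for means, bars for SD, marker shapes for pools A to D, and het for heterozygous. Wildtype heat pools A, C and D lie above the wildtype control pools for all 4 genes, and pool B lies at the bottom of the wildtype heat group.

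The promoters of Polk and Gtse1 are shown because both genes passed in wildtype embryos once heat pool B was left out and both hold a p53 half-site in a window from RefSeq (GRCm38.p6). Capitals mark the half-site. Polk and Gtse1 each have a second window, at another transcript start, without one. Btg2 and Pidd1, which also passed without pool B, were searched as well, and their windows hold no half-site. The Polk window lies at chr13:96519138-96519437 on the minus strand, with the half-site beginning at position -231 from the start. The Gtse1 window lies at chr15:85859696-85859995 on the plus strand, with the half-site beginning at position 9.
Polk: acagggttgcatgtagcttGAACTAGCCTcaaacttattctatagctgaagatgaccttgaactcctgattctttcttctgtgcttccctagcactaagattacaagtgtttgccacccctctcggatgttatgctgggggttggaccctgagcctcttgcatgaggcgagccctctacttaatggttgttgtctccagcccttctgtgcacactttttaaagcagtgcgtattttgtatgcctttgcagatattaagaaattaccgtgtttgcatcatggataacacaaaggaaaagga
Gtse1: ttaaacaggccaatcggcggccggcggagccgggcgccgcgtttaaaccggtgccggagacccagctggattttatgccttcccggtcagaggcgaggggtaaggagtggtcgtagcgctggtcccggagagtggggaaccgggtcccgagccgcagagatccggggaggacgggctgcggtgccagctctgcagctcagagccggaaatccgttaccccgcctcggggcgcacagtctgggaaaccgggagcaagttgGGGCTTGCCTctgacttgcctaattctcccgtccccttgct

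In heterozygous embryos heat changed 0 of the 26 members past the threshold by the probe of highest mean, while it changed 3.08% of all genes, and Cpt1c probe 271081 passed as given above. The median of the members was -0.066, against -0.00373 over all genes, and 2 of the 22 other p53 targets rose and 1 fell. Among the probes of highest mean the smallest p belonged to Sesn1, a sestrin that restrains mTORC1, which read 3.01, 3.42, 3.49 and 3.88 in heterozygous heat pools, all below the 4.28, 4.27, 4.86 and 4.83 of the heterozygous control pools (-0.41 ± 0.13, adjusted p = 0.11). Sesn1 was also lower in wildtype embryos, by -0.30 ± 0.13, short of the threshold (adjusted p = 0.23). Tob1, an antiproliferative relative of Btg2, changed by -0.29 ± 0.13 (adjusted p = 0.25) and Pml, which organises nuclear bodies, by -0.24 ± 0.12 (adjusted p = 0.33) with heat in heterozygous embryos.

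In null embryos 0 of 26 members passed, while 6.34% of all genes did, and 9 members, or 34.6%, had an unadjusted p under 0.05, against 26.9% of all genes. Plk3, a polo-like kinase of stress checkpoints, read 4.31, 3.07 and 4.51 in null heat pools, all below the 5.42, 5.82, 5.65 and 5.82 of the null control pools (-0.54 ± 0.17, adjusted p = 0.061). Rap2b, a small GTPase of the Ras family, read 2.54, 2.48 and 2.04 in null heat pools, all above the 1.8, 1.65, 1.67 and 1.8 of the null control pools (0.44 ± 0.14, adjusted p = 0.062). Xpc, the damage sensor of nucleotide excision repair, changed by 0.61 ± 0.21 (adjusted p = 0.077) with overlapping pools. Some members passed only when a single pool was left out. Without null heat pool C, Plk3, Pml, Rap2b and Tsc2 passed, and without null control pool A, Igfbp3 and Xpc did. Over all 21979 tested probes 1215 passed with every pool, 1572 without null heat pool C and 1025 without null control pool A.

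**Figure D3:**
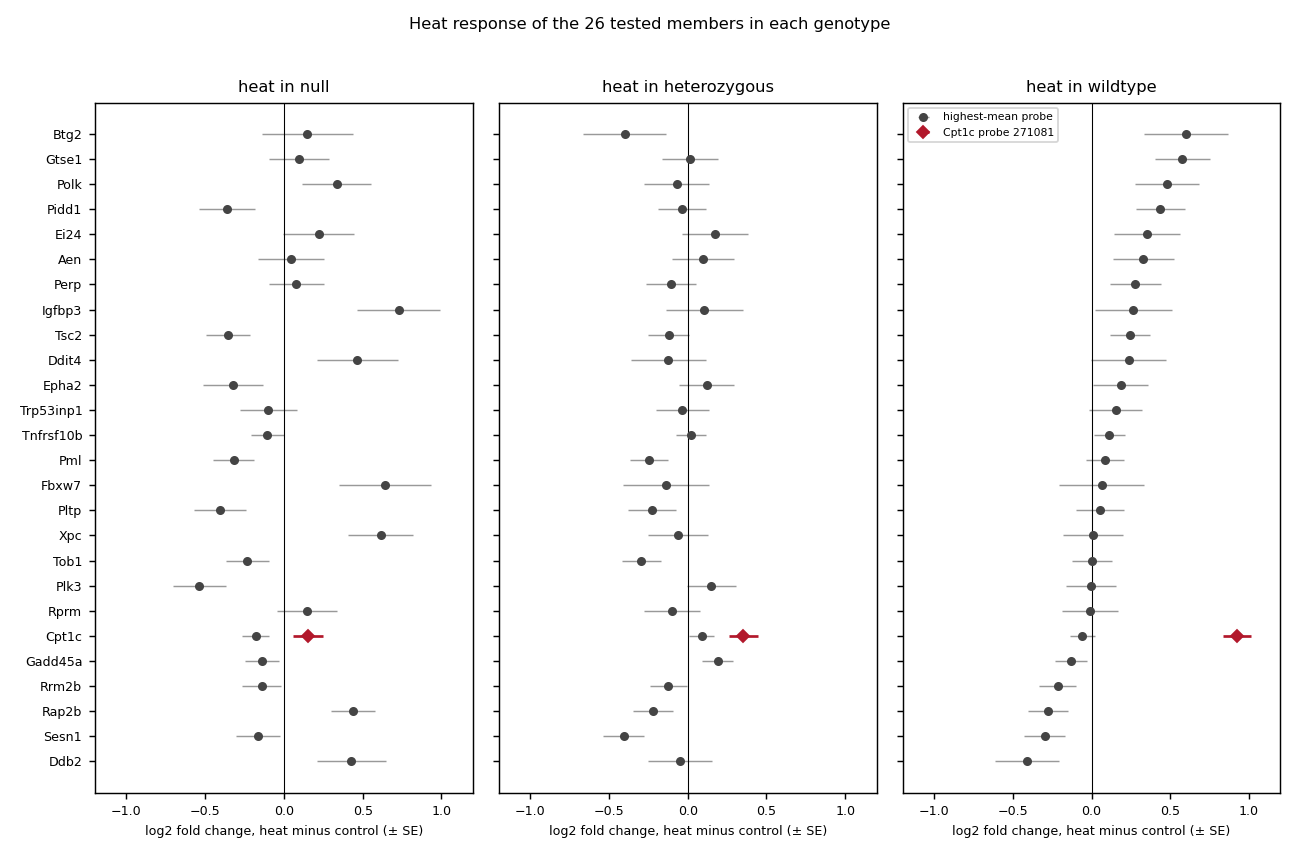
Log2 fold change of heat minus control (points, with SE bars) of the 26 tested members in null, heterozygous and wildtype embryos, with genes ordered by the wildtype value and a second marker for Cpt1c probe 271081. Grey points run from -0.54 to 0.73 in null, -0.41 to 0.19 in heterozygous and -0.41 to 0.60 in wildtype embryos, and the Cpt1c probe lies at 0.92 in wildtype embryos.

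In the 38 °C bath, null embryos differed from wildtype embryos in 6 of the 26 members, 4 lower and 2 higher. Over all tested genes 8.5% passed, 5.01% lower and 3.49% higher. The 4 that were lower were Rap2b, Fbxw7, Xpc and Igfbp3, and the 2 that were higher were Tsc2 and Pml. The median of the 26 members was -0.03, against 0.0353 over all genes. Null control pools lay entirely above wildtype control pools in 5 members (14.7% of all genes) and entirely below in 6 (11.7% of all genes). Cell type markers, each read by its brightest probe on heat arrays, also differed between these pools. Of the 21 measured in all of these pools, 5 lay entirely lower in null control pools (Otx2, Sox1, Pax3, Pecam1 and Klf1). Another 3 lay entirely higher (Pax6, Meox1 and Tbx6). A second Pax3 probe, 72067, went the other way by its means, with 2.17 to 2.51 in null control pools, against 1.81 to 2.28 in wildtype control pools. Sox1 and Klf1 were dim, each above the dim level on only 12 of the 23 arrays. Otx2, a marker of the anterior neural tube, read 4.28 to 7.75 in null control pools, against 11.4 to 12.4 in wildtype control pools, and Pax6 17.4 to 21.6, against 12.8 to 16.4. Summed over all markers of a list, the neural tube read 28.6 to 30.3 in null control pools, against 28.9 to 34.3 in wildtype control pools, the somites 32.1 to 35.6 against 30 to 35.2, and the yolk sac 115 to 206 against 178 to 249. Such a sum weighs each probe by its brightness, and Otx2 and Pax6 went in opposite directions, so similar sums do not measure similar tissue content. The part of these markers in the members' differences was not tested.

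Rap2b read 1.8, 1.65, 1.67 and 1.8 in null control pools, against 2.93, 2.54, 2.9 and 3.07 in wildtype control pools. The heterozygous control pools, at 2.71, 2.58, 2.12 and 2.61, lay above all null and mostly within the wildtype range. It was lower in null embryos by a log2 difference of -0.72 ± 0.13 (adjusted p = 0.0056), and it was the only one of the 6 that kept its call whichever null or wildtype control pool was left out. The window of its promoter from RefSeq (GRCm38.p6) is shown for that reason. It lies at chr3:61364257-61364556 on the plus strand, and holds a p53 half-site, in capitals, beginning at position 33 after the start.
Rap2b: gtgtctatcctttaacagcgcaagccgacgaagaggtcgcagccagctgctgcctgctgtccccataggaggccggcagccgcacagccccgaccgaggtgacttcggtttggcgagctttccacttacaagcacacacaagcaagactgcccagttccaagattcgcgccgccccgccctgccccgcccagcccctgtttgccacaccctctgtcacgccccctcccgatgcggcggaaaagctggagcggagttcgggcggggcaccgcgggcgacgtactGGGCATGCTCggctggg

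Fbxw7, the subunit of a ubiquitin ligase that marks cyclin E, Myc and Notch for degradation, read 2.63, 2.12, 1.3 and 1.25 in null control pools, against 4.56, 3.71, 3.79 and 4 in wildtype control pools. All null control pools lay below all wildtype ones, with a difference of -1.21 ± 0.27 (adjusted p = 0.017). Xpc read 2.07, 1.51, 1.31 and 1.17 in null control pools, against 2.97, 2.45, 2.14 and 2.51 in wildtype control pools (-0.76 ± 0.19, adjusted p = 0.022). Igfbp3, a secreted binder of insulin-like growth factors, read 3.11, 1.86, 2.07 and 1.33 in null control pools, against 4.08, 3.26, 3.08 and 4.12 in wildtype control pools, so that null pool A overlapped the wildtype range (-0.85 ± 0.25, adjusted p = 0.036). The level below which a value counted as dim was 1.14 to 1.62 on control arrays. Fbxw7, Xpc and Igfbp3 exceeded their array's dim level on 21, 20 and 22 of the 23 arrays. The lowest null control values of these 3 genes are therefore near the dim level.

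The 2 members that were higher had null control pools entirely above the wildtype ones. Tsc2, the subunit of the tuberous sclerosis complex that inhibits mTORC1, read 24.9, 29.1, 27.1 and 28.6 in null control pools, against 19.2, 18.4, 18.4 and 20.5 in wildtype control pools (0.52 ± 0.13, adjusted p = 0.022). Pml read 8.17, 8.73, 7.73 and 8.69 in null control pools, against 6.47, 5.77, 6.1 and 5.86 in wildtype control pools (0.46 ± 0.12, adjusted p = 0.025).

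Heterozygous control pools C and D differed from A and B in several of these genes. Fbxw7 read 4.03 and 4.55 in pools A and B and 2.34 and 3.08 in C and D, with C in the null range and D between the null and the wildtype range. For Tsc2 and Pml both C and D lay in the null range. Tsc2 read 20.6 and 18.5 in A and B and 26.8 and 26.7 in C and D. Pml read 6.41 and 6.15 in A and B and 8.43 and 7.97 in C and D. With the score of this split as a covariate, 0 of 26 members passed. Over all 21979 tested probes 12 passed with the score, against 1838 without it. With the score, Rap2b differed by -0.62 ± 0.15 (adjusted p = 0.13), Fbxw7 by -0.68 ± 0.26 (adjusted p = 0.39) and Tsc2 by 0.21 ± 0.10 (adjusted p = 0.49). The score separates null from wildtype control pools without overlap, so the genotype and whatever the score follows cannot be told apart in this bath.

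**Figure D4:**
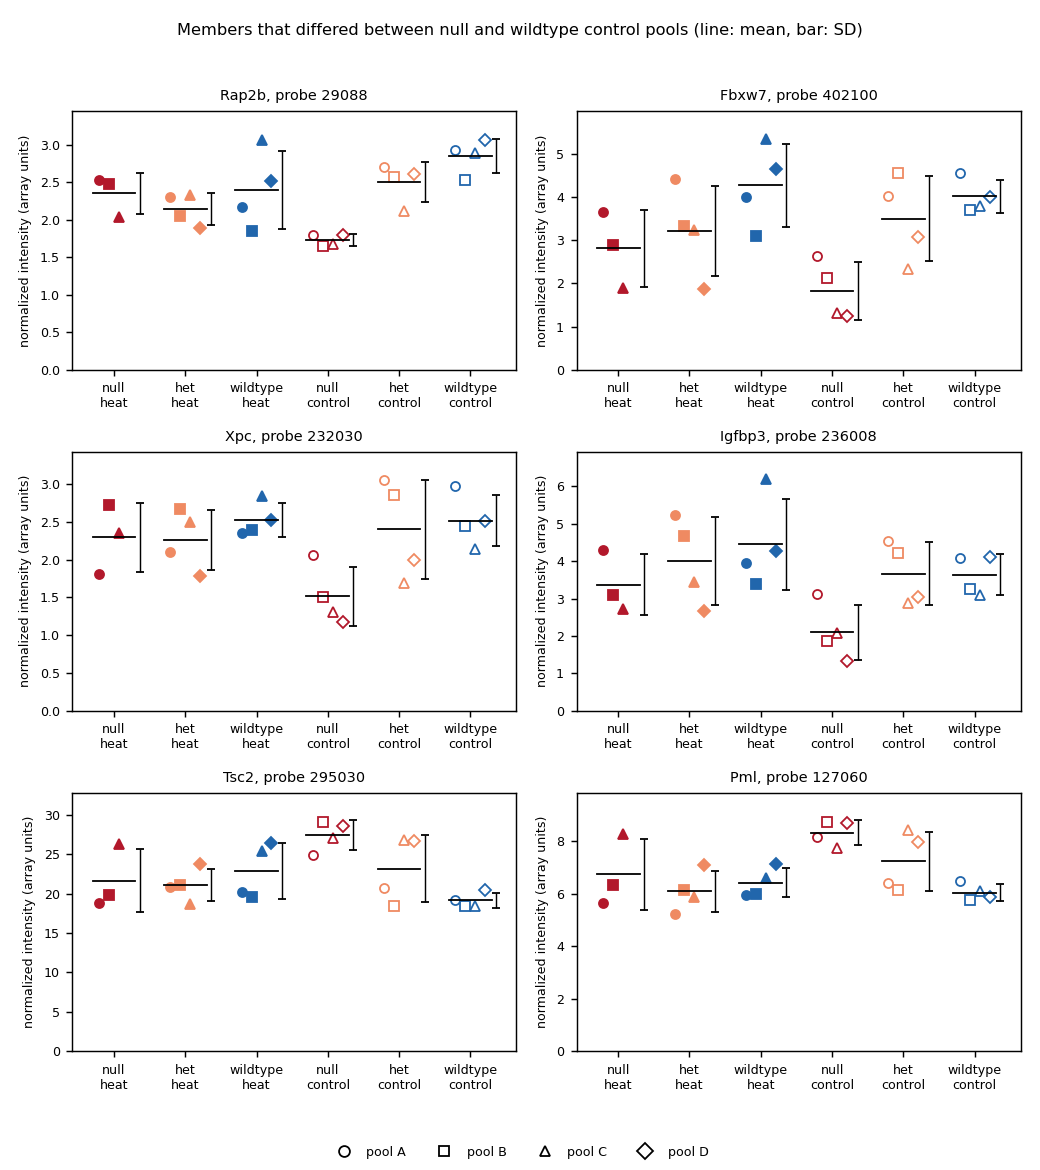
Normalized intensity (array units, linear axes) of Rap2b, Fbxw7, Xpc, Igfbp3, Tsc2 and Pml in every pool of the 6 groups, with lines for means, bars for SD, open markers for control pools, filled markers for heat pools, and het for heterozygous. Null control pools lie below wildtype control pools for the first 4 genes, with 1 overlapping pool for Igfbp3, and above them for Tsc2 and Pml, and in heat pools the ranges overlap.

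Heterozygous control pools differed from wildtype control pools in 0 of 26 members and in 0% of all genes, and no member had an unadjusted p under 0.05. The smallest p belonged to Pml (0.25 ± 0.12, adjusted p = 0.82), Tsc2 (0.26 ± 0.13, adjusted p = 0.82) and Pltp, a transfer protein for phospholipids (0.29 ± 0.15, adjusted p = 0.83).

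After heat, null embryos differed from wildtype embryos in 0 of 26 members by the probe of highest mean, while 0.49% of all genes passed, and Cpt1c probe 271081 passed as given above. The fitted difference was below 0 in 21 members and above 0 in 5, with a median of -0.175, against 0.0398 over all genes. Over all genes it was below 0 in 5508 of 12651. The unadjusted p was under 0.05 in 8 members, or 30.8%, against 19.3% of all genes. Of the 22 other p53 targets 11 were lower and 1 was higher in null heat pools, with a median of -0.546. All 6 cell-death members had a value below 0 by the probe of highest mean, with a median of -0.354. The second Pidd1 probe, 37069, went the other way by its means, with 1.75 in null and 1.67 in wildtype heat pools.

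Ei24, a membrane protein of the endoplasmic reticulum that p53 induces, read 7.38, 5.21 and 3.42 in null heat pools, against 7.76, 7.04, 10.9 and 9.24 in wildtype heat pools (-0.76 ± 0.22, adjusted p = 0.10). Aen read 6.01, 4.71 and 3.1 in null heat pools, all below the wildtype heat pools (-0.62 ± 0.21, adjusted p = 0.14). With Aen probe 6030 the null heat pools, at 2.905 to 3.559, overlapped the wildtype heat pools, at 3.129 to 3.464. Polk read 3.55, 3.7 and 2.78 in null heat pools, against 5.57, 3.4, 8.44 and 5.88 in wildtype heat pools (-0.74 ± 0.22, adjusted p = 0.10). Only wildtype heat pool B brought the 2 groups into overlap for Polk. Both Ei24 and Polk already read lower in the null embryos of the 38 °C bath. Ei24 read 5.39, 4.45, 4.21 and 3.59 in null control pools, all below the 7.3, 6.46, 6.59 and 6.7 of the wildtype control pools (-0.63 ± 0.21, adjusted p = 0.062). Polk read 2.58, 2.72, 2.55 and 2.68 in null control pools, all below the wildtype control pools (-0.59 ± 0.20, adjusted p = 0.071). The heat response of null minus wildtype embryos was -0.13 ± 0.31 for Ei24 (adjusted p = 0.82), -0.15 ± 0.30 for Polk (adjusted p = 0.78) and -0.28 ± 0.29 for Aen (adjusted p = 0.55). Without wildtype heat pool B, Polk was lower between heat pools by -0.97 ± 0.19 (adjusted p = 0.020) and Btg2 by -1.05 ± 0.22 (adjusted p = 0.028). With the split score as a covariate Aen, Ei24 and Polk passed (adjusted p = 0.038, 0.033 and 0.038). Aen and Ei24 also passed without null heat pool A, the pool of higher Ccng1. Ccng1 is itself a p53 target, so leaving out that pool is not a choice independent of p53 targets. Null heat pool A also had the highest Aen and Ei24 of its group, at 6.01 and 7.38, so its omission lowers their null means. Over all 21979 tested probes 123 passed in the main fit, 276 without wildtype heat pool B, 1104 with the split score and 1330 without null heat pool A.

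In heterozygous against wildtype heat pools, 0 of 26 members passed by the probe of highest mean, while 0.142% of all genes did, and Cpt1c probe 271081 passed as given above. The fitted difference was below 0 in 20 of 26 members and in 5080 of 12651 genes. Of the other p53 targets 7 of 22 were lower. Among the probes of highest mean Polk had the smallest p, with 3.86, 3.3, 3.35 and 2.33 in heterozygous heat pools, against 5.57, 3.4, 8.44 and 5.88 in wildtype heat pools (-0.81 ± 0.20, adjusted p = 0.13). Btg2 read 1.73, 1.61, 1.64 and 1.56 in heterozygous heat pools, against 2.79, 1.36, 5.82 and 2.98 in wildtype heat pools (-0.80 ± 0.27, adjusted p = 0.22), and Pidd1 differed by -0.45 ± 0.15 (adjusted p = 0.24). With the second Pidd1 probe, 37069, heterozygous heat pools averaged 1.78 ± 0.276 and wildtype heat pools 1.67 ± 0.339 (SD, n = 4 each). Without wildtype heat pool B, Polk was lower by -1.04 ± 0.18 (adjusted p = 0.0085) and Btg2 by -1.16 ± 0.21 (adjusted p = 0.012).

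The heat response, heat minus control, differed between null and wildtype embryos in 0 of 26 members by the probe of highest mean, while 0.68% of all genes passed. It was lower in 6 of 22 other p53 targets. By that probe all 6 cell-death members had a value below 0, and the 3 smallest p belonged to Rap2b (0.71 ± 0.19, adjusted p = 0.064), Pidd1 (-0.80 ± 0.24, adjusted p = 0.094, with 3 of the 4 null control pools measured) and Tsc2 (-0.60 ± 0.19, adjusted p = 0.11). Rap2b, low in null control pools, averaged 2.35 ± 0.269 in null heat pools (SD, n = 3), against 2.4 ± 0.523 in wildtype heat pools (SD, n = 4). Without wildtype heat pool B, Pidd1 differed by -0.94 ± 0.22 (adjusted p = 0.035). The second Pidd1 probe, 37069, measured in all pools, went the other way by its means. It averaged 1.75 ± 0.229 in null heat (n = 3) and 1.59 ± 0.14 in null control pools (n = 4). In wildtype embryos it averaged 1.67 ± 0.339 in heat and 1.99 ± 0.318 in control pools (SD, n = 4 each). Between heterozygous and wildtype embryos 0 of 26 members and 0% of all genes passed, and 4 members, or 15.4%, had an unadjusted p under 0.05, against 5.17% of all genes, led by Btg2 (-0.999 ± 0.38, adjusted p = 0.61), Gadd45a (0.32 ± 0.14, adjusted p = 0.76) and Gtse1 (-0.56 ± 0.25, adjusted p = 0.76). These comparisons share their wildtype pools with those above.

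The remaining tested members passed in no comparison. Trp53inp1, a nuclear protein that promotes apoptosis and autophagy, ran from 8.39 to 17.9 over the null heat pools, 9.94 to 14 over the heterozygous heat pools and 13 to 18 over the wildtype heat pools. Perp, a desmosome protein with a role in p53-dependent death, averaged 1.77 ± 0.369 in null heat, 1.75 ± 0.268 in heterozygous heat and 2 ± 0.566 in wildtype heat pools (SD, n = 3, 4 and 4). Rprm, which arrests cells at G2, averaged 3.48 ± 0.308 in null heat pools, against 3.28 ± 0.929 in wildtype heat pools, and Rrm2b, the p53-inducible subunit of ribonucleotide reductase, 3.23 ± 0.169 against 3.42 ± 0.475. Ddit4, which inhibits mTORC1 under stress, read 1.01, 0.919, 0.759 and 0.84 in null control pools, all below the 1.5, 1.27, 1.45 and 1.15 of the wildtype control pools (-0.61 ± 0.24, adjusted p = 0.11). The dim level of control arrays was 1.14 to 1.62, and Ddit4 exceeded its array's dim level on only 14 of the 23 arrays. Epha2, an ephrin receptor kinase, had 2 tested probes, with heat changes in wildtype embryos of 0.42 ± 0.15 and 0.19 ± 0.18 (adjusted p = 0.12 and 0.62).

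For the 7 dim members, Apaf1, Dgka, Ephx1, Fas, Thbs1, Tnfrsf23 and Trp73, only the heat arrays can be read. There the level below which a value counted as dim was 0.628 to 0.688, and 0 of 7 members were above it on at least 3 arrays, so none was tested on the heat arrays alone, where 0.1% of genes passed for null and 0% for heterozygous against wildtype. Ephx1, the microsomal epoxide hydrolase, read 0.363, 0.318 and 0.469 in null heat pools and 0.447, 0.4, 0.412 and 0.399 in heterozygous heat pools, against 0.538, 0.482, 0.558 and 0.495 in wildtype heat pools. Both mutant groups lay below every wildtype pool, at a level where the arrays are near their floor, and without the dim filter the null against wildtype difference was -0.45 ± 0.16 (adjusted p = 0.39). Trp73, the p53 relative, read 1.56 with probe 125041 in wildtype heat pool D and 0.222 to 0.434 on the other 10 heat arrays. Fas, a death receptor, and Apaf1, the core of the apoptosome, stayed at 0.226 to 0.499 and 0.328 to 0.499 on all heat arrays.

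Promoter windows of 300 bases were given for 29 of the 36 members, and 9 of them, or 31%, hold a p53 half-site on either strand (the consensus reads the same on both), in at least 1 window. Of 27025 genes with a window, 9.55% do. The 9 are Rap2b, Gadd45a, Bax, Aen, Ei24, Pml, Sesn1, Polk and Gtse1, and all 36 members were listed as p53 targets in the first place. The 7 members not searched are Ddb2, Perp, Rrm2b, Thbs1, Tnfrsf10b, Trp53inp1 and Xpc. Of the 6 members that differed between null and wildtype control pools, Rap2b and Pml hold a half-site and Xpc was not searched. A match describes the letters of the window and is not a measured binding site.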

How the data were processed

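The deposited values are linear spot intensities of CodeLink 1-colour arrays, for which the authors made biotin-labelled cRNA and stained it with an Alexa-647 streptavidin conjugate, per the labels. The sources used here name no scanner, background step or normalization. Empty cells and cells coded -9999 were set to missing, low values were raised to the 5th percentile of the positive values on their array, and log2 values were quantile normalized on the 18702 probes measured on all 23 arrays. Probes entered the test if every group held 3 or more values and 3 or more arrays exceeded their own 40th percentile. This left 21979 of 36227 probes, with 0.828% of their cells missing. The 6 group means were fitted with limma 3.58.1 under R 4.3.3 (lmFit, then eBayes with trend), with two-sided p-values, Benjamini-Hochberg adjustment over all tested probes and a threshold of 0.05. "Rose", "fell" and "passed" refer to that threshold, errors of log2 values are SE and errors of intensities SD. The fit was tested on simulated data. The labels name no litters, so the p-values cover only pool-to-pool spread, and the number of arrays limits the precision. Gene symbols came from the platform annotation, updated by gene ID (21615 probes with 1 symbol, 21487 matched by ID, 681 with several, 13931 with none), and a gene is represented by its tested probe of highest mean. Members left untested because of dim or empty control cells were read on the heat arrays alone.

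The members, their role groups, the list of other p53 targets and the split score were chosen with earlier results of these data known. Every member could be named; where none passed in a comparison, the 3 of smallest p were given, with up to 4 other targets. Alternatives were median centring, values as deposited, other floors, no dim filter, other variance priors and array weights, the comparison's arrays only, a block by pool letter, the highest value or the split score as covariate, other probe rules and leaving out each pool. Same-lettered pools of different groups had a mean correlation of deviations of 0.089 over 55 pairs, with 27 over 0.1. For pools of different letters the mean was -0.0295 over 165 pairs, with 50 over 0.1, so same-lettered pools were somewhat more alike. Letters were not taken as pairs in the main fit because the labels do not say that a letter marks a shared litter or day. The block by letter changed some calls, as given below.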

Additional observations from a re-analysis of the deposited data

Results flagged for a closer look

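In 2 of the 134 groups of 4 pools checked, 1 pool lay far from the other 3 by Dixon's criterion, which chance meets in about 1 of 20 groups. Ddit4 read 1.908 in heterozygous heat pool A, against 1.056 to 1.156 in the other heterozygous heat pools. Gadd45a read 12.93 in heterozygous control pool D, against 10.54 to 10.9 in the other heterozygous control pools. Neither gene passed the test in any comparison.

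The heat response of Cpt1c probe 271081 differed between null and wildtype embryos by a tested log2 difference of -0.7703 (adjusted p = 0.015, limma). It passed in 24 of 27 alternatives. It did not pass with the values as deposited, with quantile normalization over all cells present, or without null heat pool B. In that pool Hspa1a read 120, against 1.77 and 2.1 in the other null heat pools, and Cpt1c read 3.95 with probe 271081, between the 3.76 and 4.02 of pools A and C. Whether Hspa1a and the Cpt1c result are linked was not tested.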

How the results depend on the processing

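Counts of members called moved by over 1.5 times under 41 of 243 alternatives. Those 243 include counts on the heat arrays alone, where no member entered unless the dim filter was dropped, so most of these could not move. Of 226 alternatives for single fold changes 58 lost the call and 0 changed direction. With heat in wildtype embryos the count, 0, became 1 with array weights, 1 with a block by pool letter (Gtse1), 1 with the split score, 1 with any probe of a gene (Cpt1c) and 1 with the mean over probes, and ran from 0 to 4 when each pool was left out, with 4 only without wildtype heat pool B. Over all 21979 tested probes the calls were 676 in the main fit, 1338 with array weights, 807 with the block, 1415 with the split score and 772 without that pool. With heat in heterozygous embryos, 0 became 4 with each array's highest value as covariate, 1 with the score of the control split and 1 with any probe. Probe calls there went from 508 to 1248 with the highest value and to 1170 with the split score. In null embryos, 0 became 1 with array weights and 8 with the highest value, and ran from 0 to 4 without single pools. Probe calls there were 1215 in the main fit, 1231 with array weights and 5178 with the highest value. Between null and wildtype control pools, 6 became 11 on those arrays only, 13 with array weights and 0 with the split score, and ran from 1 (without null control pool D) to 8 (without null control pool A), while a block by letter gave 8. The count was 2 without wildtype control pool B, null control pool B or null control pool C, and 3 without wildtype control pool C or D. Calls over all tested probes moved too, from 1838 in the main fit to 4635 on those arrays only, 6082 with array weights, 12 with the split score and 2850 with the block. Leaving out null control pool A, B, C or D gave 1936, 252, 581 or 431 probe calls. Leaving out wildtype control pool A, B, C or D gave 840, 500, 750 or 382. Between null and wildtype heat pools, 0 became 2 with the block (Aen and Ei24), 2 with the highest value, 3 with the split score, 1 with any probe and 1 with the mean over probes, and ran from 0 to 2 without single pools, with 2 without wildtype heat pool B or null heat pool A. Probe calls there were 123 in the main fit, 509 with the block, 872 with the highest value and 1104 with the split score. They were 276 without wildtype heat pool B and 1330 without null heat pool A. Between heterozygous and wildtype heat pools the member count, 0, became 1 with the split score and 1 with any probe, and ran from 0 to 2, with 2 without wildtype heat pool B. Probe calls there went from 31 to 231 with the split score and to 90 without that pool. For the heat response of null against wildtype embryos, 0 became 1 with values as deposited, 2 with array weights, 1 with any probe and 1 with the mean over probes, and ran from 0 to 1, with 1 without wildtype heat pool B or C. Probe calls there were 222 in the main fit, 650 with values as deposited, 391 with array weights, 344 without wildtype heat pool B and 118 without wildtype heat pool C. Quantile normalization over all cells present, chosen after seeing the data, gave 25, 25 and 24 members higher with heat in wildtype, heterozygous and null embryos; it takes the empty control cells as random, and 19249 of 21979 probes passed with heat in wildtype embryos. The causes of the other changes were not tested. Array number and signal near the floor limit what can be seen of dim members.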
